A study of Mus musculus with 7 samples.

Results

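The loci of 7 genes of the SOX family were examined in 7 ATAC-seq peak lists from the mouse face and teeth: Sox2, Sox1 and Sox3 of the B1 group, Sox21 of the B2 group, Sox9 of the E group, and Sox4 and Sox11 of the C group. ATAC-seq uses a transposase that cuts DNA where it is not packed by nucleosomes, so that a peak marks accessible chromatin. A site was a stretch of genome covered by peaks of any of the 7 libraries, with peaks joined where they shared at least 1 bp. Every site inside a gene body or within 100 kb of it (200 kb for Sox2) was taken, which gave 113 sites on autosomes and 2 on the X chromosome (at Sox3), of 130788 sites on placed chromosomes in the whole data set.

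The 2 replicated groups were ectoderm peeled from the first pharyngeal arches at embryonic day 11.5 (2 libraries) and Sox2-positive cells sorted by fluorescence from the labial cervical loop of the lower incisor at postnatal day 2 (P2, 2 libraries). The sort used a Sox2-GFP mouse line in which the reporter is expressed from the gene's own promoter, and the labels call the sorted cells dental epithelial stem cells (DESC). Whole lower incisor, whole lower first molar and whole upper first molar at P2 gave 1 library each and have no replicate check. The labels name no treatment. Strain, sex, the number of pooled animals, and whether ectoderm and whole teeth came from the reporter line are not given in the sources used here. Nothing in the labels says that replicates came from separate litters. In whole teeth, fewer cells of a type cannot be told apart from less open chromatin per cell.

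SOX proteins bind DNA through an HMG box and bend it, and related members recognise nearly the same short sequence. SOX2 maintains stem and progenitor cells in many epithelia and in the nervous system, and in the mouse incisor it marks the epithelial stem cells of the labial cervical loop that renew the enamel-forming ameloblasts. SOX21 acts mainly as a repressor and is needed in hair and enamel epithelium. SOX9 serves epithelial stem cells and cartilage, and SOX4 and SOX11 serve progenitors in epithelium, mesenchyme and neurons. SOX1 and SOX3 are chiefly neural.

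The promoters of Sox2, Sox21 and Sox11 are printed because their start sites gave the 3 contrasting patterns described below. Each line holds the 250 bases before the gene start, 5′ to 3′ on the gene's strand, from RefSeq (GRCm38.p6): Sox2 at chr3:34649745-34649994 (plus strand), Sox21 at chr14:118237031-118237280 and Sox11 at chr12:27342719-27342968 (both minus strand). Capitals mark matches, on either strand, to the motifs searched.
Sox2: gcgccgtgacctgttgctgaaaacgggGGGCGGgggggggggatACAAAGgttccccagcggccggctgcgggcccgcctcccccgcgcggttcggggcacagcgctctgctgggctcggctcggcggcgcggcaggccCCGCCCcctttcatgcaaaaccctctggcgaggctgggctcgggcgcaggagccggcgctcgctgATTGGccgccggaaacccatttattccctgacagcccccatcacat
Sox21: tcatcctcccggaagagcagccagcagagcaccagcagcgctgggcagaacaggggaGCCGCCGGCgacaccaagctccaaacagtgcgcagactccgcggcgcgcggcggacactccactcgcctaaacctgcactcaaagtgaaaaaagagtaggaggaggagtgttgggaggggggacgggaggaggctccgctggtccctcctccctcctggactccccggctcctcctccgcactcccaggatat
Sox11: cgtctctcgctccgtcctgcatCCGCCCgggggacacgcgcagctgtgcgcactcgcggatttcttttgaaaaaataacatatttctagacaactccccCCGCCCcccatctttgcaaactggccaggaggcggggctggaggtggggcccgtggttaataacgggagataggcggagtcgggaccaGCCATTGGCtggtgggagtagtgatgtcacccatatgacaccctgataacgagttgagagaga

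The motifs searched on both strands were the SOX cores ACAATG and ACAAAG, the composite site of SOX2 and a POU factor, the PITX site TAATCC, the TCF/LEF site ATCAAAG (whose last 5 letters end the second SOX core too), the AP-1 site TGANTCA and the AP-2 site GCCNNNGGC. The CCAAT box CCAAT and the GC box GGGCGG were added after the sequences had been seen. Among 21262 promoter windows of the same length, ACAAAG was present in 14.9%, GCCNNNGGC in 16.3%, CCAAT in 35.4% and GGGCGG in 42.6%, and the composite in none. The Sox2 window held ACAAAG 206 bases before the start, a CCAAT box on the opposite strand and a GC box on each strand. The Sox21 window held 1 match, to GCCNNNGGC, 193 bases before the start. In the Sox11 window the GCCNNNGGC match and the CCAAT box overlapped, 63 and 60 bases before the start. The windows of Sox1 and Sox4, not printed, held 1 and 4 CCAAT boxes. GC content was 72.0% at Sox2 and 65.2% at Sox21, against a median of 55.6% over all promoters and 50.8% at Sox4. A match describes letters only and is not a bound site.

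The lists held 82461 and 50792 peaks in ectoderm, 42606 and 39017 in Sox2-positive cells, and 63040 to 70000 in whole teeth. Longer lists find more sites anywhere, and read depth is unknown, so counts of sites are also given for lists of the same length, the 38000 autosomal peaks of each library with the smallest p-value. The strength of a peak is given as its signal percentile, its place among the peaks of its own list from 0 (weakest) to 100. Percentiles in lists of different length are not on one scale, and with 2 libraries against 2 the smallest two-sided exact permutation p is 0.333, so no test was made. A start peak is one that overlaps the 1 kb on either side of a gene start. Of 8 epithelial marker genes, 7 had a start peak in each replicated library and in each molar and 6 in incisor, with Trp63 at none in any library. Their percentiles summed to 624 and 585 in ectoderm, 473 and 415 in the sorted cells, 424 in incisor and 607 and 602 in the molars. Epcam, Cdh1 and Cldn4, genes of epithelial adhesion, had start percentiles of 91.4 to 97.8 in ectoderm and 17.7 to 69 in Sox2-positive cells. Of 8 mesenchymal marker genes, 5 and 6 had one in the ectoderm libraries, 7 in each Sox2-positive library, 8 in incisor and 7 in each molar. The sums of these were 413 and 435 in ectoderm, 521 and 510 in Sox2-positive cells and 525 to 611 in whole teeth. Between Sox2-positive replicates 1 and 2, Col1a1 (78.1 and 96.2), Twist1 (67.8 and 86.9) and Msx1 (71 and 85.6) were higher in replicate 2, and Prrx1 (58.6 and 32.2), Pdgfra (56.7 and 23), Col1a2 (90.9 and 89) and Vim (98.2 and 97.6) in replicate 1. Pdgfra had no start peak in ectoderm. Of 4 ameloblast genes, none had a start peak in ectoderm, 1 (Ambn) in Sox2-positive cells and incisor, and 2 in molars. The lists of 4 genes each for endothelium and for neural and Schwann cells had 1 or 2 start peaks in each library, and that for blood had 1. The defining markers Pecam1 and Tek (endothelium), Ptprc and Csf1r (blood) and Sox10 (Schwann cells) had none in any library. The part of the epithelial and mesenchymal makeup in the results for Sox2-positive cells was not tested.

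At the start of Sox2 itself, the gene whose reporter was used for the sort, all 7 libraries had a peak, and its rank differed by group. The start site spanned chr3:34649197-34651363, over the promoter and the first part of the single-exon gene, which lies inside the long non-coding gene Sox2ot. Its signal percentile was 87.8 and 87.5 in ectoderm, 49.3 and 37.9 in the sorted cells, 7.12 in whole incisor, 22.7 in lower molar and 10.03 in upper molar. The 2 ectoderm values lay above both Sox2-positive values, which in turn lay above all 3 whole-tooth values. With lists of the same length the peak remained in each of the 4 replicated libraries and dropped out of the 3 whole-tooth lists. Its percentiles were then 74.1 and 83.6 in ectoderm against 44.3 and 37.4 in Sox2-positive cells, in the same order. At that length 10 of the 62 autosomal SOX sites were in all 4 replicated libraries (16.1%, against 21.7% of all autosomal sites) and 9 of them in all 7 libraries (14.5% against 19.2%). The Sox2 start was the site that was missing from whole teeth. The peaks also differed in width, at 1378 and 2127 bp in ectoderm, 442 and 740 bp in Sox2-positive cells and 218 to 300 bp in whole teeth. The summit, the position that the caller marks in a peak, lay 107 bases before the gene start in 5 libraries, 94 in upper molar and 47 in ectoderm replicate 2. In the printed sequence the base 107 before the start falls within the GC box CCGCCC, whose first base is 111 before the start.

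**Figure D1:**
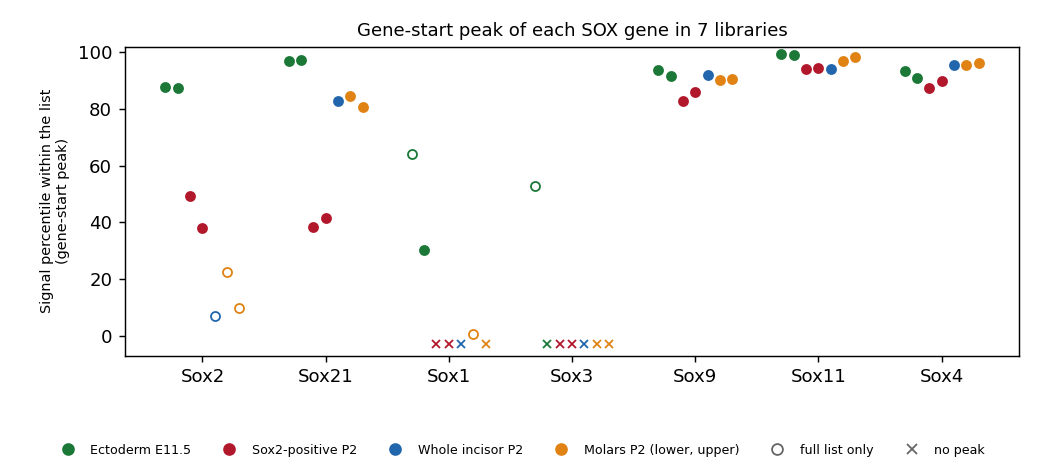
Signal percentile (vertical axis, 0 to 100 within the library's own list) of the strongest peak within 1 kb of the start of each SOX gene in each of 7 libraries, coloured by group. Filled circles are peaks also present among 38000 autosomal peaks per library, open circles are in the full list only, and crosses mark no peak. Sox3, on the X chromosome, is outside the shortened lists. Sox11, Sox4 and Sox9 lie above 80 in all libraries, while Sox2 and Sox21 are spread by group and Sox1 and Sox3 are mostly without a peak.

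Upstream of Sox2, 1 site had a peak in all 5 P2 libraries and in neither ectoderm library. It lay 35.5 kb before the start, inside Sox2ot, at chr3:34614059-34614953. Its percentile was 82.3 and 62.3 in the sorted cells, 89.7 in incisor, 90.7 in lower molar and 92.2 in upper molar, and it was kept in all 5 lists of the same length. In Sox2-positive cells it ranked above the start site of the gene in both replicates, and in whole teeth by far more. Its summits lay within 48 bp of each other. A weaker site 10.5 kb upstream had percentiles of 61.5 and 51.2 in ectoderm, 15.7 in Sox2-positive replicate 1, 23.2 and 21.6 in the molars and no peak in the other 2 libraries.

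Downstream of Sox2 a group of sites lay between 95.4 and 166 kb from the start, a range that includes distal enhancers known from embryonic stem cells. Whether any site named here overlaps those enhancers was not tested. Of the sites in this range, 3 had a peak in all 7 libraries at either list length. The first, at chr3:34773614-34774555, 124 kb downstream and over the non-coding gene Gm38509, was high everywhere, with percentiles of 93.3 and 87.0 in ectoderm, 73.9 and 71.4 in the sorted cells, 57.4 in incisor, and 77.1 and 79.3 in lower and upper molar. The second, 146 kb downstream at chr3:34795112-34796370, stood at 95.2 and 88.3 in ectoderm but at 16.7 and 12.2 in Sox2-positive cells, with 40.3 in incisor and 61.5 and 56.4 in the molars. At this site the Sox2-positive libraries ranked lowest of all groups. The third, 159 kb downstream at chr3:34808649-34810017, ran the other way, with 55.5 and 38.3 in ectoderm and 82.9 and 81.9 in the molars. Sox2-positive replicates differed there (75.1 and 33.0), and their range enclosed both ectoderm and incisor (48.6). Summits at these 3 sites agreed within 41 bp over the 7 libraries.

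Ectoderm had further Sox2 sites that no P2 library shared. Of the 31 sites at the locus, 7 had a peak in both ectoderm libraries and in no Sox2-positive list, and none of the 7 had a peak in a whole tooth. The strongest, 97.9 kb downstream at chr3:34747326-34748414, had percentiles of 94.7 and 76.6. Another, 151 kb downstream at chr3:34799856-34801216, had 82.1 and 69.7. Both remained with lists of the same length. So did a site 166 kb downstream at chr3:34815336-34816411 (93.8 and 83.2), which in the full lists also had a weak peak in Sox2-positive replicate 1 (10.8). A further 12 sites had a peak in ectoderm replicate 1 alone, the longest list, and 2 of these were left at the same length. Over the 6 autosomal loci, 34 sites were in a single library (30.1%, against 31.3% of all autosomal sites), 24 of them in that replicate, and 19 at the same length (30.6% against 25.1%). In the molars, a site 193 kb upstream at chr3:34456920-34457402 was present at percentiles of 52.3 and 58.2, against 3.87 in incisor and 7.19 in ectoderm replicate 1. It was the one Sox2 site that both molars alone held at the same length.

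**Figure D2:**
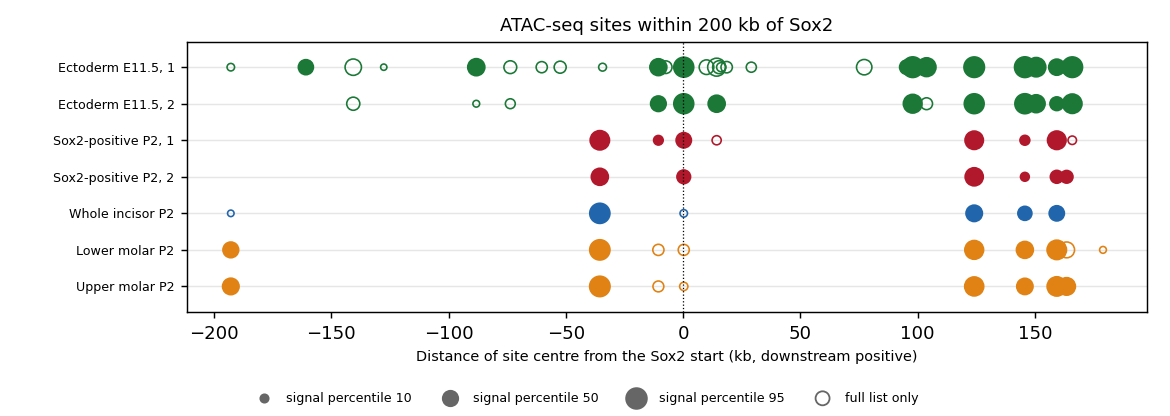
Sites within 200 kb of Sox2, by distance of the site's centre from the gene start in kb (horizontal axis) and library (rows). Circle area grows with the signal percentile of the peak, filled circles are peaks among 38000 autosomal peaks per library, and open circles are in the full list only. The site 35.5 kb upstream is filled in all 5 P2 rows and empty in both ectoderm rows, and the sites 124, 146 and 159 kb downstream are filled in all 7 rows.

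Sox1 and Sox3, the other B1 genes, had little open chromatin at their starts in teeth. The Sox1 start site, at chr8:12395115-12396005, had percentiles of 64.0 and 30.2 in ectoderm and 0.803 in lower molar, and no peak in the other 4 libraries. A start peak in both ectoderm libraries with none in Sox2-positive cells was seen at 6.04% of 20661 autosomal protein-coding genes, and Sox1 was the 1 member of 6 that had it. At the same length the Sox1 start peak was left in ectoderm replicate 2 alone, and 0 of 6 members had that pattern (3.61% of all genes). A site 3.76 kb upstream, at chr8:12391521-12392006, was present in both ectoderm libraries at either length (68.5 and 28.6) and in no P2 library. The reverse was seen 48.7 kb upstream, at chr8:12346473-12347119, in all 5 P2 libraries and neither ectoderm library. There the percentiles were 19.1 and 41.0 in the sorted cells, 70.2 in incisor, and 75.9 and 62.4 in the molars. That was the only Sox1 site with a peak in Sox2-positive cells or incisor.

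At Sox3, on the X chromosome, the 2 sites were both in ectoderm replicate 1, with percentiles of 53.0 and 9.85, and both lay over the gene at chrX:60892087-60892796 and chrX:60893154-60893615. No other library had a peak within 100 kb. The lists of the same length hold autosomes only. Neither peak reached the significance at which the list of that library was shortened, a −log10 p of 4.79.

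At the start of Sox21 the Sox2-positive cells stood lowest of all groups. The start site, chr14:118234414-118237687, lay over the promoter and the first part of the single-exon gene and had a peak in all 7 libraries at either list length. The percentile was 96.9 and 97.3 in ectoderm, 38.5 and 41.6 in the sorted cells, 82.7 in incisor, and 84.8 and 80.9 in lower and upper molar. Both Sox2-positive values lay below every other library, including whole incisor. With lists of the same length they were 32.6 and 41.2, against 93.3 and 96.5 in ectoderm and 66.4 to 72.6 in whole teeth. The ectoderm mean was 97.1 ± 0.312 and the Sox2-positive mean 40.1 ± 2.21 (SD, n = 2 each), a difference of 57 points, and 58 points at the same list length. Over 14360 genes with a start peak in at least 1 of these 4 libraries, the median difference was 6.85 points, and 0.0178 at the same length. In these differences a library without a start peak counted as 0. Of those genes 93.3% had a smaller difference than Sox21, and 97.3% at the same length. For Sox2 the difference was 44.1 points (ectoderm 87.7 ± 0.206, Sox2-positive 43.6 ± 8.06), larger than in 88% of genes, and 38 points at the same length. The epithelial markers Epcam, Cdh1 and Cldn4 moved the same way between these groups, with the percentiles given above. Krt5, from the same marker list, moved the other way, and Krt14 differed little.

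The Sox21 peak had its summit between 168 and 172 bases before the start in ectoderm and whole teeth. In Sox2-positive cells the summit lay 312 bases after the start in replicate 1 and 34 bases before it in replicate 2. Peak widths were 2271 and 3170 bp in ectoderm, 981 and 986 bp in Sox2-positive cells and 1218 to 1296 bp in whole teeth, so the Sox2-positive peaks were the narrowest.

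Away from its start, Sox21 had 2 sites open in ectoderm and in no P2 library at either list length, 60.2 kb upstream at chr14:118296833-118297651 (percentiles 72.9 and 50.4) and 70.2 kb upstream at chr14:118306738-118307659 (74.9 and 60.6). A site 56.6 kb downstream, at chr14:118179705-118181125, was high in ectoderm (84.3 and 77.8) and lower in Sox2-positive replicate 1 (37.0), lower molar (37.1), upper molar (2.46) and incisor (2.19). It had no peak in Sox2-positive replicate 2. The remaining site found in all 7 libraries, 99.9 kb downstream, lay at an end of the neighbouring gene Gpr180 and ranked between 84.1 and 93.2 in every library.

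Sox9 kept a strong start peak in all libraries. The site, chr11:112781011-112783159, spans the lower-coordinate end of the gene, and no strand is listed for Sox9 in the table used. Its percentile was 93.9 and 91.8 in ectoderm, 82.9 and 86.2 in the sorted cells, 91.9 in incisor, and 90.4 and 90.5 in the molars. It was the only Sox9 site in either Sox2-positive library, and at the same length also the only one in incisor. Ectoderm and molars each had sites of their own around it. Ectoderm had one 53.5 kb below this end, at chr11:112728004-112729466 (89.9 and 77.8), and one 88.1 kb above it, at chr11:112869810-112870861 (78.7 and 46.8), both in no P2 library at either length. Both molars, and no other library, had 3 sites at either length. The strongest, 16.6 kb above the end at chr11:112798372-112799299, had a percentile of 83.4 in each molar, and those 11.3 kb below and 60.9 kb above had 61.8 and 40.3 in the lower molar and 49.6 and 49.9 in the upper.

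Sox11 and Sox4, genes of the C group, had strong start peaks in every library. The Sox11 start site, chr12:27341115-27344064, had percentiles of 99.4 and 99 in ectoderm, 94 and 94.5 in the sorted cells, 94.1 in incisor, and 97.1 and 98.5 in the molars. Its summits fell within 12 bp of each other, and in 3 libraries 56 bases before the start, at the last base of the CCAAT box shown above. The Sox4 start site, chr13:28951810-28954159, had 93.6 and 91.1 in ectoderm, 87.3 and 89.9 in the sorted cells, 95.6 in incisor, and 95.5 and 96.3 in the molars. The difference between ectoderm and Sox2-positive cells at these starts was small, 4.94 points for Sox11, 3.70 for Sox4 and 8.29 for Sox9, near the median of all genes. At the same length Sox4 was −0.645, so its sign turned, while Sox11 was 4.79 and Sox9 was 4.43.

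Around Sox11, 10 sites had a peak in ectoderm and 8 in a P2 library, and 4 were in both (9, 3 and 2 at the same length). Ectoderm alone, against all P2 libraries and at either length, held a site 107 kb downstream at chr12:27235388-27236838 (96.6 and 87.4), one 50.8 kb downstream (61.5 and 29.7) and one 89.2 kb upstream (74.8 and 48.2). The 5 P2 libraries shared a site 32.1 kb downstream at chr12:27309854-27311296, inside the non-coding gene Gm52005, where ectoderm had no peak. The percentiles there were 74.3 and 74.8 in the sorted cells, 50.2 in incisor, and 87.9 and 91.9 in the molars. Ectoderm had its own site in the same gene, with its centre 30.7 kb downstream (51.9 and 28.8), next to the P2 site and not joined to it. Besides the start, the P2 site was the only Sox11 site in Sox2-positive cells. A site 49.2 kb upstream was present in ectoderm (77.8 and 68.2), weaker in the molars (34.7 and 25.6) and incisor (6.77), and absent in Sox2-positive cells. Its neighbour 47.9 kb upstream, at chr12:27390126-27391014, joined peaks of ectoderm (54.1 and 34.2) and the molars (63.9 and 60.7) and had no peak in the other 3 libraries. The summits there were split by tissue, 48022 and 48033 bases before the start in ectoderm and 47596 and 47571 in the molars.

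At Sox4 the ectoderm libraries had 15 and 8 sites in the full lists, the Sox2-positive libraries 10 and 7, the incisor 11 and the molars 14 and 16. With lists of the same length the ectoderm libraries had 5 and 7 sites, the Sox2-positive libraries 8 and 7, the incisor 6 and the molars 9 each, so that neither ectoderm count exceeded a Sox2-positive count. Beside the start, a second broad site 5.26 kb upstream, chr13:28957704-28960214, was among the strongest peaks of every list, with percentiles of 92.1 and 96.7 in ectoderm, 98.8 and 92.3 in the sorted cells, 98.5 in incisor, and 98.9 and 99.4 in the molars. This site lay inside the non-coding gene Gm46405, and the listed lower-coordinate end of another non-coding gene, Gm52067, was at chr13:28960253. The summits of each library's strongest peak in the site formed 2 clusters. They lay 4785 to 4793 bases before the start in ectoderm, Sox2-positive replicate 2 and incisor, and 6081 to 6107 in Sox2-positive replicate 1 and both molars. Ectoderm replicate 1 and Sox2-positive replicate 2 also had a second, weaker peak in this site, whose summit is not given. A site 78.5 kb downstream, chr13:28875055-28875412, inside 2610307P16Rik, was in all 5 P2 libraries and neither ectoderm library, with 46.1 and 21.4 in the sorted cells, 66.2 in incisor, and 69.2 and 67.0 in the molars. The site 35.4 kb upstream was in ectoderm alone (64.6 and 10.01). Each Sox2-positive replicate also had a site of its own in no other list, 38.5 kb upstream in replicate 1 (57.3) and 69.3 kb upstream in replicate 2 (33.0), so neither was shared by the replicates.

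**Figure D3:**
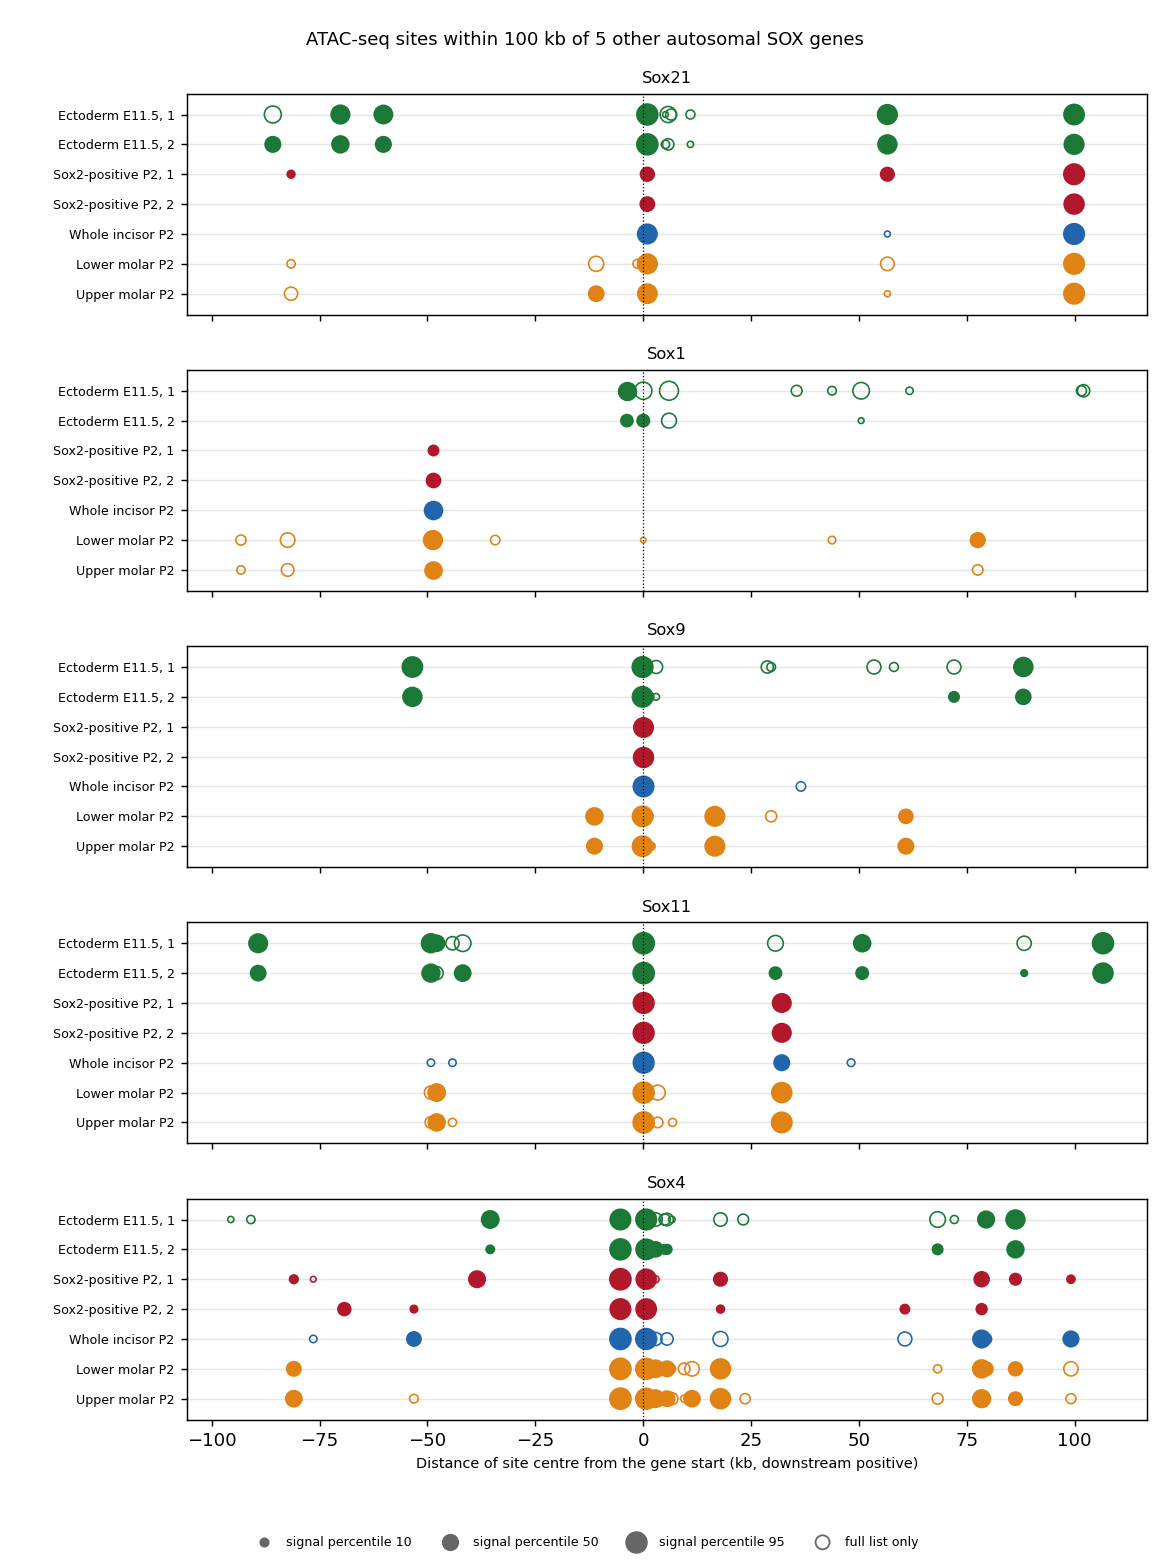
Sites within 100 kb of Sox21, Sox1, Sox9, Sox11 and Sox4 by distance of the site's centre from the gene start in kb (horizontal axis; for Sox9 from its lower-coordinate end) and library (rows), drawn as in the plot of Sox2 sites. Sox2-positive rows of Sox9 show the start site alone, and the Sox11 panel shows a P2 site 32.1 kb downstream beside ectoderm sites on either side.

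Library patterns were then counted over the 6 autosomal loci. Ectoderm and P2 libraries differ in tissue and preparation as well as stage, which cannot be told apart. Of 113 sites, 50 were in both ectoderm libraries, and these were all the sites that ectoderm replicate 2 had. Sites in both Sox2-positive libraries numbered 15, and as many again were in 1 of the 2 replicates. The sites of both ectoderm libraries that had no peak in Sox2-positive cells numbered 34 (30.1%), against 17.9% of all autosomal sites, and 13 of 62 (21.0%) against 15.7% at the same length. Counted from ectoderm replicate 1 alone there were 65. Only 1 of the 34, at Sox1, lay within 1 kb of a gene start. A peak in both ectoderm libraries and no P2 library was found at 28 sites (24.8%, against 11.7% of all autosomal sites), and at 13 of 62 (21.0% against 12.8%) at the same length.

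The reverse, a peak in each Sox2-positive replicate with no peak in ectoderm, was found at 4 sites, 1 each at Sox2, Sox1, Sox11 and Sox4 (3.54%, against 5.90% of all autosomal sites). At the same length there were 5 (8.06% against 12.1%), the fifth being a Sox4 site 17.9 kb downstream that was in ectoderm replicate 1 in the full lists. Counted from Sox2-positive replicate 2 alone there were 7 such sites, and from replicate 1 alone 9. The 4 sites were those found in all 5 P2 libraries (4.61% of all autosomal sites, and 6.30% at the same length, where the SOX loci had 6.45%). These shares lay near or below the background.

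**Figure D4:**
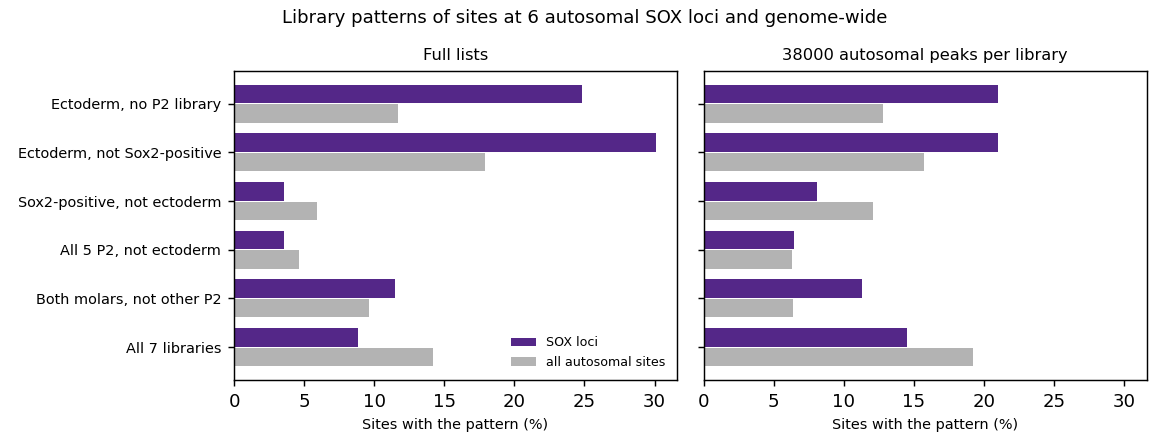
Share of sites, in percent (horizontal axis), that show each library pattern, at the 6 autosomal SOX loci (purple) and among all autosomal sites (grey), for full lists and for 38000 peaks per library. The SOX loci lie above the background for sites of ectoderm alone (24.8% against 11.7% in full lists) and below it for sites in all 7 libraries (8.85% against 14.2%).

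The sorted cells were next compared with the whole incisor. In the full lists every site of both Sox2-positive libraries was also in incisor, so that 0 of 113 sites were in Sox2-positive cells alone (0.970% of all autosomal sites). At the same length there were 2 (3.23% against 4.70%), the start of Sox2 and the Sox4 site 17.9 kb downstream. In the full lists 2 sites of Sox2-positive replicate 2 and 7 of replicate 1 had no peak in incisor. The incisor had 8 sites that neither Sox2-positive library had (7.08% against 15.7%), and 1 at the same length (1.61% against 8.12%). Both molars had 13 sites with no peak in incisor or Sox2-positive cells (11.5% against 9.60%), and 7 at the same length (11.3% against 6.35%), of which 3 were at Sox9. Between the molars, 12 sites were in 1 molar (10.6% against 12.8%), and 5 at the same length (8.06% against 11.0%). None of the molar differences has a replicate.

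**Figure D5:**
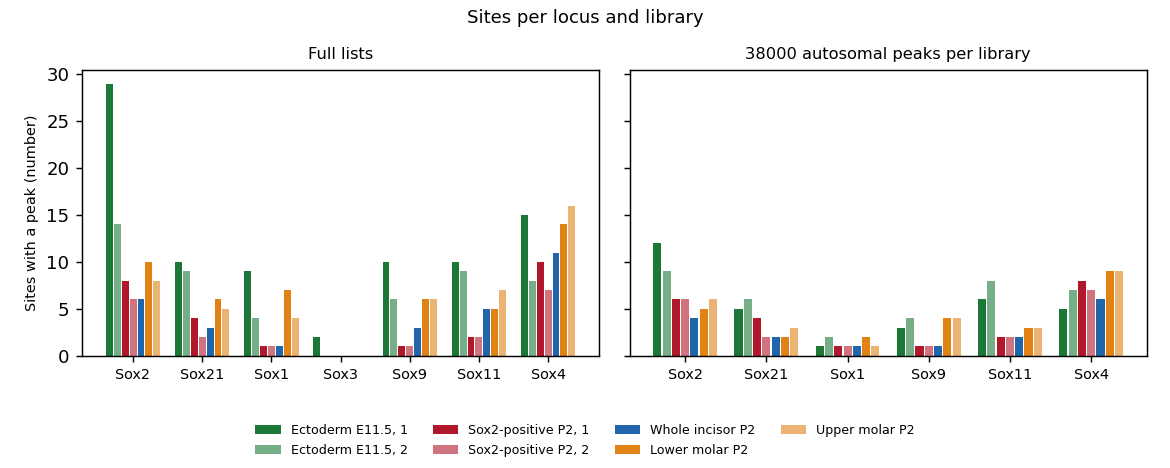
Number of sites with a peak (vertical axis) at each locus in each library, for the full lists (left, with Sox3) and for 38000 autosomal peaks per library (right). Sox2 has 29 and 14 sites in ectoderm in the full lists and 12 and 9 at the same length, against 8 and 6 in the Sox2-positive libraries in the full lists and 6 in each at the same length. Sox4 has 15 and 8 sites in ectoderm in the full lists and 5 and 7 at the same length, against 10 and 7, then 8 and 7, in the Sox2-positive libraries.

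The median number of sites at the member genes was below that of all genes, for sites in any library and for sites in all 7. Within 100 kb, the 6 autosomal genes had a median of 14.5 sites in any library, against 18 over 20661 autosomal protein-coding genes and 21.5 over 12 other autosomal SOX genes (7.5, 12 and 14.5 at the same length). Sites in all 7 libraries had a median of 1 at the member genes, 5 at the other SOX genes and 3 over all genes (1, 3.5 and 3 at the same length). Sites in both ectoderm libraries and no P2 library had medians of 4, 2 and 1, and of 1.5, 1 and 1 at the same length. In each Sox2-positive library Sox9 and Sox1 had 1 site each at the same length, fewer than the median of 6 over all genes.

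Start peaks were present in all 7 libraries at 5 of the 6 autosomal genes, all but Sox1 (55.7% of all genes), and at 4 of 6 at the same length (51.4%). None of the 6 had a start peak in Sox2-positive cells and not in ectoderm (0.397% of all genes, and 0.992% at the same length). None was without a start peak in every library (29.3% and 33.4%). Of the 12 other SOX genes, 5 had a start peak in all 7 libraries in the full lists: Sox8, Sox12, Sox13, Sox15 and Sox30. At the same length these were Sox8, Sox12 and Sox15. In the full lists Sox13, Sox15 and Sox30, like Sox21, had both Sox2-positive values below every other library. Sox15, for example, had 80.6 and 80 in ectoderm, 34.1 and 30.9 in Sox2-positive cells and 58.3 to 61.4 in whole teeth. At the same length its lower molar value (26.9) lay below both Sox2-positive values (27.8 and 30.4). Sox14, the other B2 gene, was the only one of the 12 with a start peak in both ectoderm libraries and not in Sox2-positive cells at either length, with percentiles of 86.7 and 88.2 and no peak in any P2 library. Sox7 and Sox17, genes of endothelium and endoderm, showed that pattern in the full lists, and in no list at the same length. Sox6 had 94.2 and 99.5 in ectoderm, none in Sox2-positive replicate 1, 40.0 in replicate 2 and 53.7 to 67.3 in whole teeth. Sox5 and Sox10 had no start peak in any library.

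The genes with start peaks most like those of Sox2 were sought by the mean absolute difference of the signal percentile over the 7 libraries. A library without a start peak counted as 0, as for Trhde in incisor, Tmem151b in lower molar and Mapk12 in upper molar. The 5 nearest were Trhde (9.96 points), Tmem151b (10.2), Mapk12 (10.2), Shc2 (11.4) and Fxyd6 (11.5). For Sox21 they were nearer, with Rnf144b (3.68), Elovl6 (4.37), Whrn (4.37), Cav2 (4.96) and Stx3 (5.17). Rnf144b, for example, had percentiles of 91.2 and 91.6 in ectoderm, 36.8 and 44.7 in the sorted cells, 76.3 in incisor, and 85.2 and 83.6 in the molars.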

How the data were processed

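The data were 7 peak lists, 1 per ATAC-seq library (Omni-ATAC, per the labels' protocols), with no read counts. The submitters' processing notes name FastQC, Trimmomatic, Bowtie2, deepTools and Genrich and the build mm10. Versions, options and the transposase shift are not given in the sources used here. The deposited signal of a peak (200.0 or more in every list) and its deposited −log10 p were used only within a list. Nothing in the files shows a scaling of these values across libraries. The authors' q-value column held no values and was not used.

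Peaks on placed chromosomes were merged into sites (minimum overlap 1 bp) with Python 3.11.15 and pandas 2.3.3. The merging was checked on simulated lists. A group had a site if both replicates did. Where a library had more than 1 peak in a site, the peak with the largest signal gave its percentile, width and summit. Genes and starts came from RefSeq tables of GRCm38.p6, the assembly that mm10 names. Starts were listed for 5 of the 7 genes and for 17491 protein-coding genes in all. Both gene ends stood in for Sox3, Sox9 and every other protein-coding gene without a listed start. The shares of start peaks over all genes include such genes. Motifs were sought in the 250 bases before each start. The members, lists and rules were chosen with earlier results of these data known. The sites named are those at gene starts, in all 7 libraries, in both Sox2-positive libraries at Sox2, and group-only sites that remained in lists of the same length, at most 4 per locus and direction. Other sites named (weaker, molar or single-library ones) and the patterns over all P2 libraries were chosen after their values were seen. Alternatives were the same length by signal, the top 50% of each list, 50% coverage of a site, 200 bp windows around summits, a 50 kb window, and leaving out each replicate.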

Additional observations from a re-analysis of the deposited data

How the results depend on the processing

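List length moved most counts over the 6 autosomal loci, since shorter lists hold fewer sites. The 113 sites became 62, 60 and 52 with 38000 peaks by p-value, 38000 by signal and the top 50% of each list. In that order of settings, ectoderm-only sites (34) became 13, 19 and 12, incisor-only sites (8) 1, 0 and 4, molar sites (13) 7, 7 and 7, and sites in 1 molar (12) 5, 4 and 6. Sox2-positive-only sites against ectoderm (4) fell to 1 in the top 50%. Those against incisor (0) became 2 and 1 with 38000 peaks by p-value and by signal, 2 with 50% coverage and 1 with summit windows. Within 50 kb there were 61 sites, 18 ectoderm-only, 6 in all 4 replicated libraries and 8 in molars. With 50% coverage 5 of the 10 sites in all 4 replicated libraries were left. The starts of Sox2, Sox21 and Sox11 and the Sox2 sites 146 and 159 kb downstream were lost. At each, the peak of a Sox2-positive library covered less than 50% of the merged site, for example 442 of 2167 bp at the Sox2 start. Leaving out each replicate in turn gave 34 to 65 ectoderm-only sites, 4 to 9 Sox2-positive-only sites against ectoderm, 2 to 7 against incisor and 10 to 16 sites in all 4. The Sox4 start difference turned to −0.645 points with lists of the same length by p-value. The cause of the other changes with coverage, of those with summit windows and of this start difference was not tested. Peak lists hold no counts, so what depth hides cannot be told. The labels do not pair samples between groups, so no paired analysis was possible, and presence in a list gave no test.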
